A study of Mus musculus with 2 samples.

Results

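Glutathione transferases and a set of genes grouped here around the transcription factor NRF2 were compared. The comparison was between small intestine of mice without epithelial Spib and wild-type small intestine. The members were chosen by symbol: all genes of the table named as members of the alpha, mu, pi, theta, omega, kappa or zeta class of glutathione transferases or as microsomal glutathione transferases, and 13 further genes, namely Nfe2l2, which encodes NRF2, its inhibitor Keap1, and Nqo1, Gclc, Gclm, Gsr, Txnrd1, Srxn1, Gpx1, Gpx2, Gpx3, Gpx4 and Prdx1. This gave 39 of the 27275 genes in the table, 26 of them glutathione transferases, and 38 of the 39 are protein-coding. The remaining one, Gstm2-ps1, is a processed pseudogene.

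The first library, called KO here, came from small intestine of Spibfl/flVillin-Cre mice, in which Cre recombinase driven by the villin promoter, active in intestinal epithelium, removes the floxed Spib gene. The second library, called WT, came from small intestine whose title names it wild type and whose genotype label reads Spib+Villin-Cre, so that both genotypes name Villin-Cre. Both came from naive animals, and the design text calls the tissue proximal small intestine. The sources used here do not give the age or sex of the mice or say whether several were pooled. RNA was amplified to cDNA by SMART-Seq II, which copies full-length polyadenylated transcripts, and each gene has an FPKM value in each library, a read number scaled by gene length and library size. There was 1 library per genotype, so no difference below has a replicate or a test, and each is a difference between these libraries.

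Glutathione is a tripeptide that cells use to neutralise reactive molecules. Glutathione transferases join it to electrophilic compounds, such as plant and drug metabolites or products of lipid oxidation, and the intestinal epithelium meets many of these in food. In unstressed cells the protein KEAP1 marks NRF2 for destruction. Oxidants or electrophiles modify KEAP1, NRF2 then accumulates in the nucleus, and with small MAF proteins it binds antioxidant response elements near genes for glutathione synthesis, conjugation and the removal of peroxides.

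The depth implied by the values was 17658566 reads for KO and 17425640 reads for WT. Spib had 0.592 FPKM in KO, from 30 reads, and 4.94 FPKM in WT, from 247 reads, so the targeted gene was lower in the library labelled as its knockout. Of all genes, 13479 reached 1 FPKM in KO or WT and were compared. The log2 ratio used below is log2((KO FPKM + 1) / (WT FPKM + 1)), which shrinks differences between low values, while a fold is the plain ratio of FPKM. Ranges after folds are 95% intervals for counting error alone, and they take each read as a separate molecule although several can be PCR copies of a single one.

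NRF2 binds a known DNA motif, so the promoters of the members were searched for the antioxidant response element core, TGACNNNGC, on both strands. RefSeq promoter windows of 300 bases (250 before and 50 after the annotated start, build GRCm38.p6) were found by symbol for 34 of the 39 members, in 48 windows. The core was present in a window of 9 members, which is 26.5% of those 34, against 14% of all 27025 genes with a window. The search required TGAC, so the similar TGAGTCAGC was not counted, in members or in all genes. It occurs, for example, in the bases before the start of Gstp1, Gstp2 and Srxn1. Members with several annotated starts have several windows, which gives them more places for a match. By window, 9 of the 48 member windows had the core, against 4071 of all 32851 windows (12.4%). A match is a run of letters, not a measured binding site. The 9 matches follow, each read on the strand that carries the core, with the core in capitals and 10 bases on either side.
Gclm, chr3:122245413-122245441, minus strand: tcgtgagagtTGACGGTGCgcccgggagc
Gsta3, chr1:21240454-21240482, plus strand: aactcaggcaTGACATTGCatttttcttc
Gstm5, chr3:107895802-107895830, plus strand: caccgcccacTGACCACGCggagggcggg
Gstm7, chr3:107931725-107931753, minus strand: tctgaagaccTGACAAAGCgaagccaatc
Mgst1, chr6:138140461-138140489, minus strand: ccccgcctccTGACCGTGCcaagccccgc
Nfe2l2, chr2:75704885-75704913, minus strand: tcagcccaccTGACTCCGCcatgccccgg
Prdx1, chr4:116685456-116685484, minus strand: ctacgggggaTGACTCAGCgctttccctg
Srxn1, chr2:152105542-152105570, minus strand: tgtctcactcTGACCTAGCtgcccactgc
Txnrd1, chr10:82859104-82859132, minus strand: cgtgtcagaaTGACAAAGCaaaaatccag

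The match of Prdx1 is TGACTCAGC, which was present in 0.503% of all genes with a window, and contains TGACTCA, the letters bound by AP-1 factors. The matches lay between 38 bases (Gstm5) and 236 bases (Nfe2l2) before the start, except that of Srxn1, which lay 32 bases after it. The members with the highest log2 ratios in the comparison were Gstm3, Prdx1 and Gclm. By plain fold Gstm6 (1.87) lay above Gclm (1.72) and Prdx1 (1.70), and the core was in no window of Gstm6 or of Gpx2 (1.52). Besides Prdx1 and Gclm, the folds with the core were 0.687 (Gsta3), 0.921 (Mgst1), 1.01 (Nfe2l2), 1.07 (Gstm5), 1.23 (Txnrd1), 1.25 (Gstm7) and 1.30 (Srxn1). A link between the core and the folds was not tested. The 250 bases before the RefSeq start of Gstm3, Prdx1 and Gclm are shown whole, read in the direction of the gene, with the core in capitals where it occurs. Gstm3 has no match in this window, whereas Prdx1 and Gclm have it in opposite orientation to the gene. The GENCODE models of Gstm3 and Prdx1 begin within these windows, so that part of each is annotated there as transcribed.
Gstm3, chr3:107969175-107969424, minus strand: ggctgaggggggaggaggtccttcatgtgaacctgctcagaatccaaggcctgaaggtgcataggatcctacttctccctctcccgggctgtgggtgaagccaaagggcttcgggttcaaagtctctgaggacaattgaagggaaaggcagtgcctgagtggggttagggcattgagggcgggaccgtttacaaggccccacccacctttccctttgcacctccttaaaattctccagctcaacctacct
Prdx1, chr4:116685349-116685598, plus strand: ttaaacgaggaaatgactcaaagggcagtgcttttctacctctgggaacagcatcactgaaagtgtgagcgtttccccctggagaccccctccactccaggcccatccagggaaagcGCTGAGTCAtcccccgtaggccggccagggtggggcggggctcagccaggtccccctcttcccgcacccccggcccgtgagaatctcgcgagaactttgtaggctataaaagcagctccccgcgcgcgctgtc
Gclm, chr3:122245307-122245556, plus strand: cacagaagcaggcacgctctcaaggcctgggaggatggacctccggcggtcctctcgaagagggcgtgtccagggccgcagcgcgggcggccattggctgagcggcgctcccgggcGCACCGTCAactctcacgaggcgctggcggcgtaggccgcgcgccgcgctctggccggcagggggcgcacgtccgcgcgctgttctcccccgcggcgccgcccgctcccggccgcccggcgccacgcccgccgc

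Most members had higher values in KO than in WT, by small amounts. Of the 39 members, 36 reached 1 FPKM in at least 1 library. The median log2 ratio of these 36 was 0.15, beside -0.05 over all compared genes. The ratio was above 0 for 28 of the 36, or 77.8%, beside 41.3% of all compared genes, and 26 to 29 members were above 0 when the libraries were rescaled in other ways. The middle of the distribution of all genes, from the lower to the upper quartile, ran from -0.21 to 0.11, and that of the members from 0.02 to 0.36. Above the upper quartile of all genes lay 20 members, and below their lower quartile lay 2, Gsta3 and Gstp3. The counting interval of the fold lay above 1 for 18 members, below 1 for 3 (Gsta3, Mgst1 and Gpx1) and on both sides of 1 for 15. Such intervals were not computed for all compared genes, so these counts have no background share beside them. They also depend on depth, since intervals narrow with more reads, and 24 members reached 10 FPKM in either library.

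**Figure D1:**
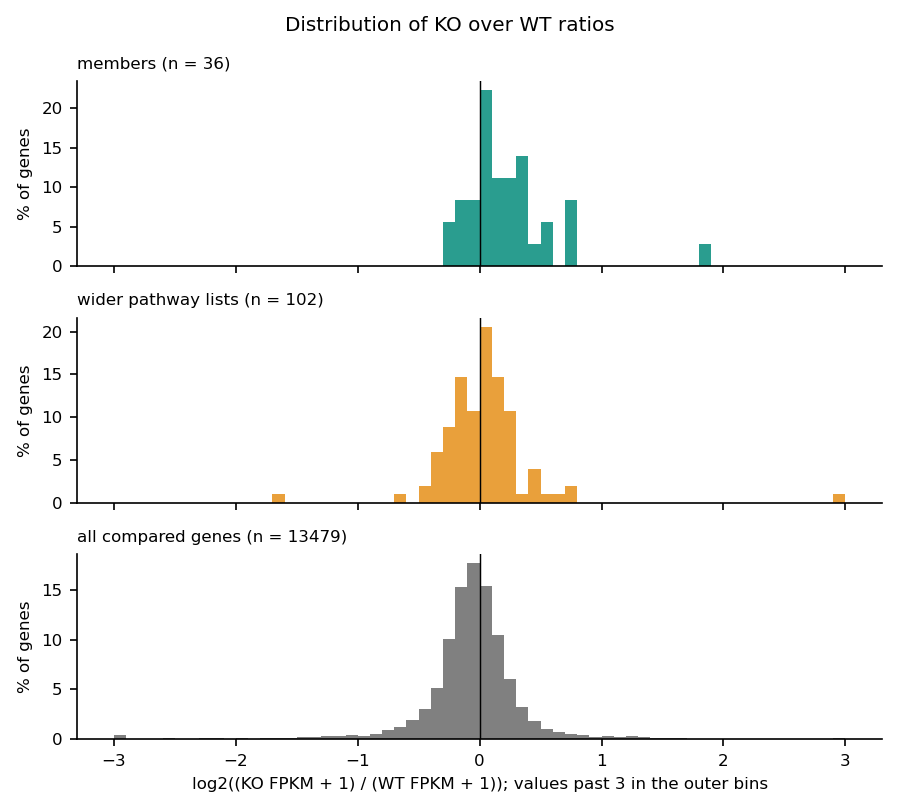
Share of genes in each bin of the log2 ratio of KO over WT FPKM (x axis) for the 36 compared members, for 102 compared genes of wider pathway lists and for all 13479 compared genes (y axis: percent of the genes in each panel). The members lie mostly right of 0, with Gstm3 apart at 1.84.

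Past 2-fold there was a single member, Gstm3, on the higher side and none on the lower side. Among all compared genes, 1.61% were at least 2-fold higher and 2.51% at least 2-fold lower, so 1 of 36 members (2.78%) was near the background on the higher side. At least 1.5-fold higher on the same scale were 5 members, Gstm3, Prdx1, Gclm, Gstm6 and Gpx2, which is 13.9% of the 36 beside 3.56% of all compared genes. At least 1.5-fold lower was no member, beside 5.69% of all compared genes. Gstk1 lay just short of that limit, with a log2 ratio of 0.57 against 0.60 for Gpx2.

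**Figure D2:**
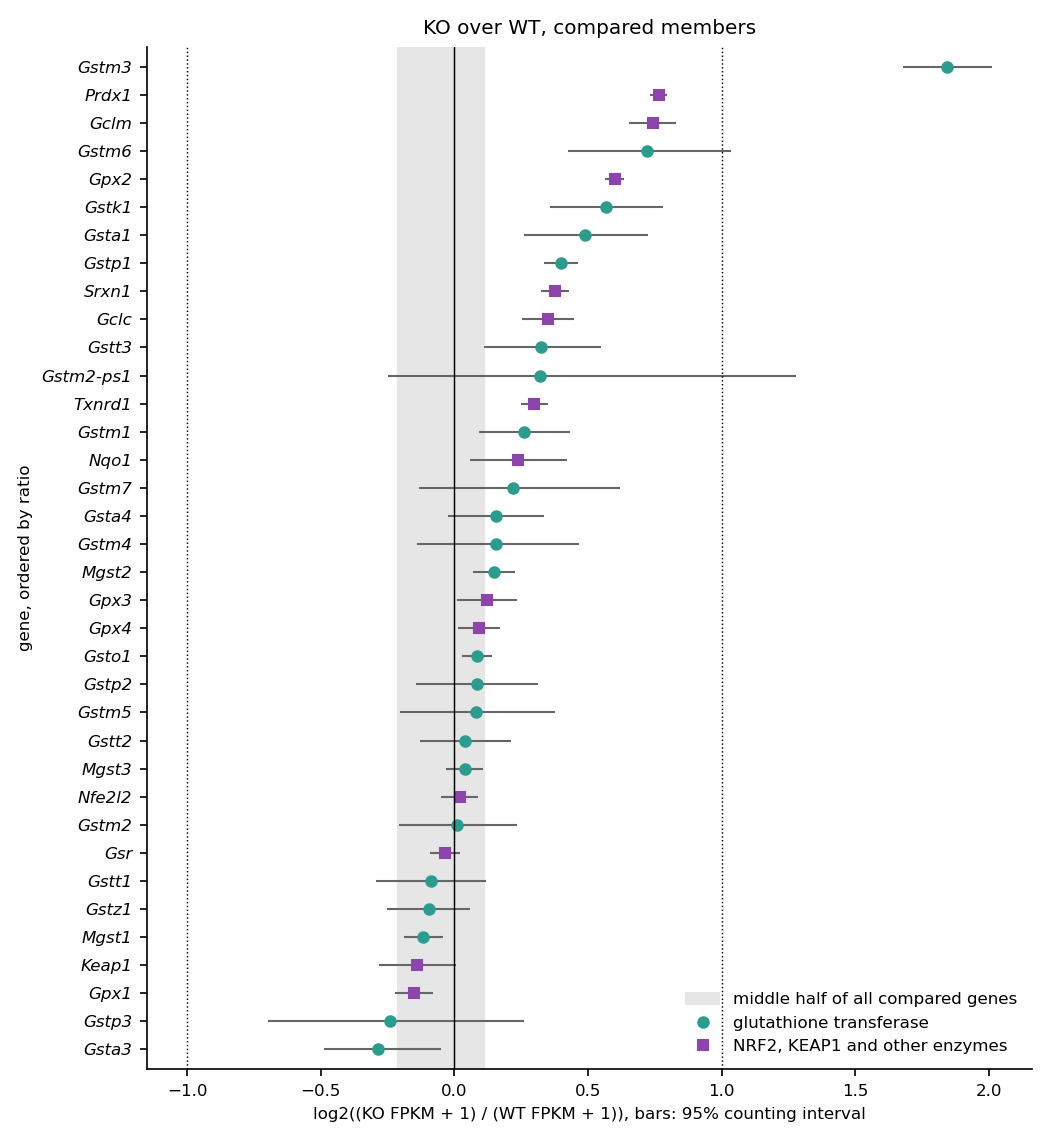
Log2 ratio of KO over WT FPKM (x axis, with a pseudocount of 1) for the 36 compared members in order (y axis); bars are 95% counting intervals, the grey band is the middle of the distribution of all compared genes (-0.21 to 0.11) and dotted lines mark 2-fold. Gstm3 is the only member past the 2-fold line, and Prdx1, Gclm, Gstm6 and Gpx2 follow between 0.60 and 0.76.

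Markers of several cell types also differed between the libraries, and in whole tissue fewer cells of a type and less RNA per cell cannot be told apart. No marker of any list was at 0 in either library. Of the tuft cell markers, all 7 that were compared, of 9 measured, were at least 2-fold higher, and the list summed to 65.5 FPKM in KO and 12.0 FPKM in WT. Mast cell markers were past 2-fold higher for 2 of the 3 compared, and their 4 genes summed to 21.4 FPKM in KO and 7.48 in WT. Of the goblet cell markers 2 of 7 were past 2-fold higher, the median log2 ratio was 0.05, and the sums were 7741 FPKM in KO and 5870.2 in WT, or 5683 in KO and 5174 in WT without Clca1. Of the Paneth cell markers 3 of 4 had higher values in KO, with a median log2 ratio of 0.39, and 2 were at least 1.5-fold higher. Past 2-fold was 1 of 4, Ang4, with 4221 FPKM in KO and 809 in WT. The Paneth list summed to 12664 FPKM in KO and 9376 in WT with Ang4, and to 8443 in KO and 8567 in WT without it. Lyz1, its highest marker and the only one with a lower value in KO, had 4250.3 in KO and 5754 in WT. Lower by at least 2-fold were 2 of 5 B cell, 2 of 4 plasma cell and 3 of 7 T cell markers. The sums of these lists were 8.43, 91.6 and 30.5 FPKM in KO, against 23.0, 222 and 69.2 FPKM in WT, and without Jchain the plasma cell sums were 33.9 in KO and 41.9 in WT. Macrophage markers were lower in KO for 5 of 6, none past 2-fold, with a median log2 ratio of -0.47 and sums of 87.0 FPKM in KO and 123 in WT. Their part in the values of the members was not tested.

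No enterocyte marker of 13 and no crypt marker of 7 was past 2-fold, nor was any compared marker of enteroendocrine cells, fibroblasts, smooth muscle or endothelium. Of the enterocyte markers 9 of 13 had higher values in KO, with a median log2 ratio of 0.14, whereas the sum was 14804 FPKM in KO and 16338 in WT, since the abundant Fabp2, Apoa1 and Anpep had lower values in KO. Of the crypt markers 5 of 7 had lower values in KO, with a median of -0.09, whereas the sum was 458 FPKM in KO and 434 in WT, most of it Olfm4 with 370.5 in KO and 336 in WT. Of the proximal small intestine markers 5 of 6 had higher values in KO, with a median log2 ratio of 0.13. Their sums were 1839 FPKM in KO and 1195 in WT. All 5 distal markers had lower values in KO, with a median of -0.23, and summed to 2164 in KO and 2524 in WT. Fabp6, the ileal bile acid binding protein, was at 1735 FPKM in KO and 2030.2 in WT. The iron exporter Slc40a1, the only proximal marker with a lower value in KO, was at 3.41 in KO and 8.75 in WT. Fabp6, a gene of the ileum, was thus abundant in both libraries, whose design text names the proximal small intestine. The 13 mitochondrially encoded protein genes had a median log2 ratio of 0.59, from -0.79 to 1.26. Whether region or RNA quality took part in the values of the members was not tested.

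The level of the members spanned more than the differences between the libraries did. Prdx1 and Gpx2 were the highest in both libraries, and Gstp1, Mgst3, Gsto1, Srxn1, Gpx1 and Gsr were the other members at 100 FPKM or more in both. Among the glutathione transferases, the 4 highest genes, Gstp1, Mgst3, Gsto1 and Mgst1, held 69.3% of the summed FPKM in KO and 74% in WT. Gstp1 and Mgst3 had nearly the same level in KO, 179 and 178 FPKM, while in WT Gstp1 was the lower of them, at 136 against 173. FPKM is a level per length, and the length that the values imply for Gpx1 and Gpx2 is that of the whole gene, 1441 and 3222 bases, introns included. Their values per length of mature transcript would therefore be higher, in both libraries alike.

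**Figure D3:**
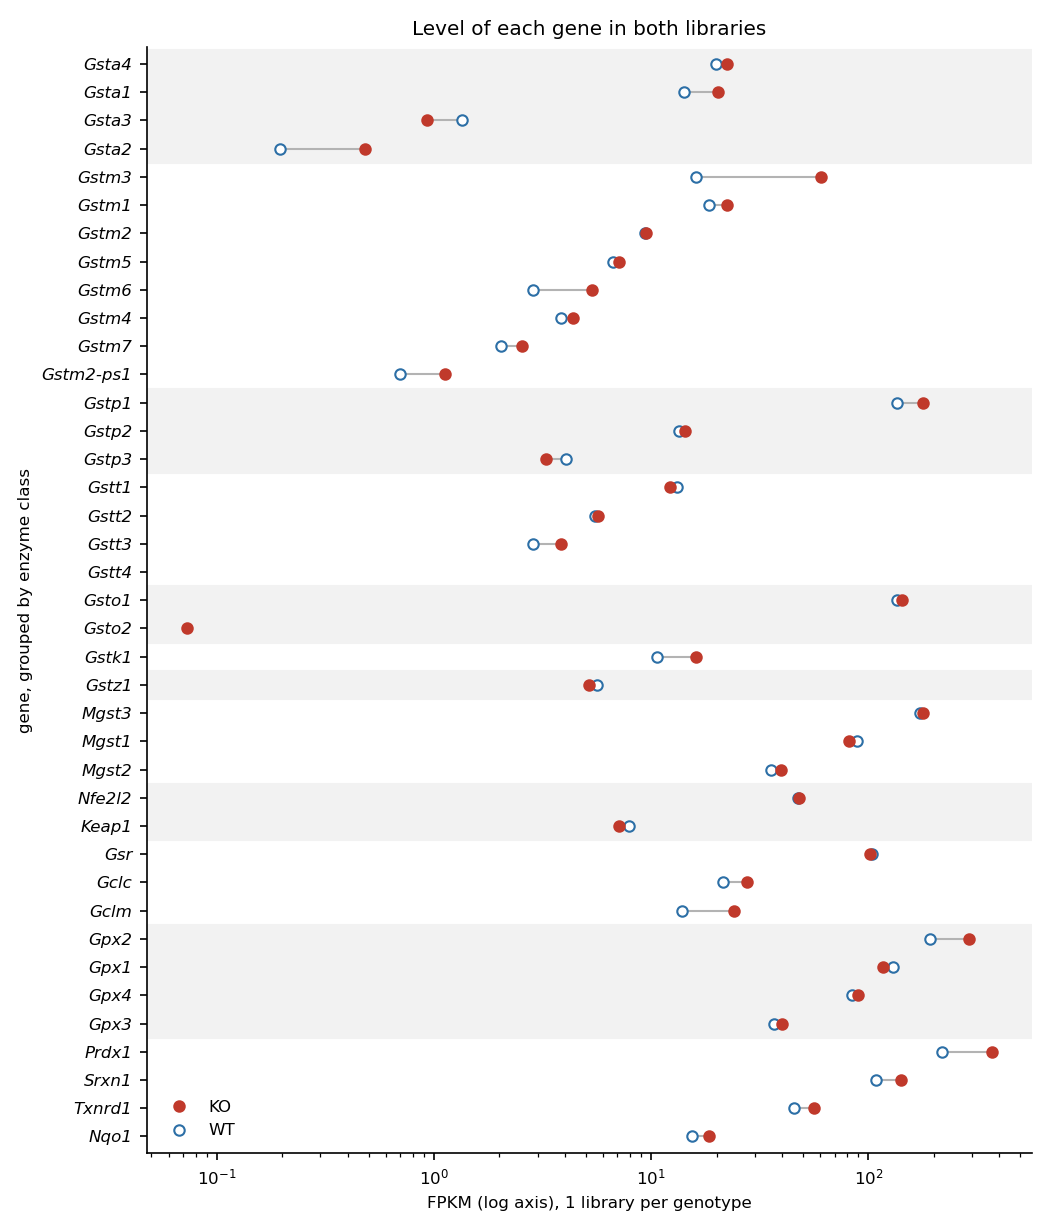
FPKM on a log axis (x axis) of each of the 39 members (y axis), grouped by enzyme class in shaded bands, with KO as filled and WT as open points; values listed at 0 (Gstt4 in both, Gsto2 in WT) are not drawn. Most pairs of points nearly coincide, and the line between them is longest for Gstm3 (60.4 in KO, 16.1 in WT) among genes above 10 FPKM.

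Of the glutathione transferase classes, the mu class had the highest fold of summed FPKM, a rank that rested on Gstm3, since without it the mu fold lay below those of the kappa, pi and alpha classes. Its 7 genes lie in a cluster on chromosome 3, and all had higher values in KO, though Gstm2 was level (9.48 FPKM in KO, 9.40 in WT) and turned to a log2 ratio of -0.02 when both libraries were given the same total. Gstm3 (ENSMUSG00000004038, mm10 chromosome 3, 107963696 to 107969283, minus strand) had 60.4 FPKM in KO, from 1398 reads, and 16.1 FPKM in WT, from 368 reads. That is 3.75-fold higher (3.34 to 4.22), with a log2 ratio of 1.84, which 43 of the 13479 compared genes exceeded. Gstm6, its neighbour, had 5.35 FPKM in KO, from 188 reads, and 2.86 FPKM in WT, from 99 reads, 1.87-fold higher (1.46 to 2.42). Gstm1, the most abundant mu gene of the WT library, had 22.3 FPKM in KO and 18.5 FPKM in WT, 1.21-fold higher (1.07 to 1.37). For Gstm4, Gstm5 and Gstm7 the folds were 1.14, 1.07 and 1.25, and the counting interval of each included 1. Of the exon bases of Gstm5, 13.9% overlap an antisense locus, 4933431E20Rik.

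**Figure D4:**
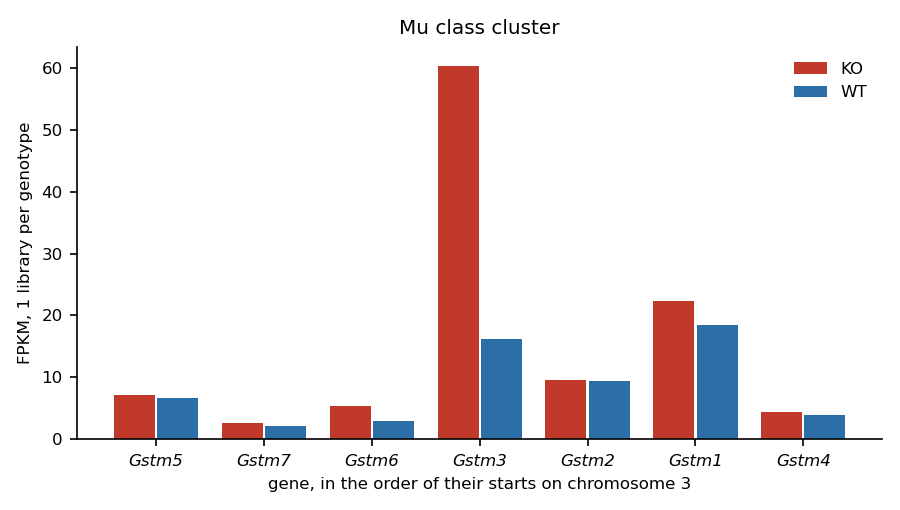
FPKM (y axis, from 0) of the 7 mu class genes in KO (left bar of each pair) and WT (right bar), in the order of their starts on chromosome 3 (x axis). Gstm3 stands at 60.4 in KO and 16.1 in WT, between Gstm6 (5.35 in KO, 2.86 in WT) and Gstm2 (9.48 in KO, 9.40 in WT).

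Gstm3 therefore made up 53.6% of the summed mu class FPKM in KO and 26.8% in WT. With the pseudogene Gstm2-ps1, which had 1.12 FPKM in KO and 0.699 in WT from 13 and 8 reads, the class summed to 113 FPKM in KO and 60.1 FPKM in WT, 1.88-fold higher (1.76 to 1.998). Without Gstm3 the sum was 52.3 FPKM in KO and 43.9 FPKM in WT, 1.19-fold higher (1.10 to 1.29). Copies of this class resemble each other, and the sources used here do not say how reads that fit several copies were counted. Of the 50-base words in Gstm3 transcripts, 28.8% also occur in other genes, 16% in the unnamed locus Gm8834, 11% in Gstm2-ps1, 9.83% in Gstm1 and 6.02% in Gstm6. Gm8834 had 2.31 FPKM in KO and 1.73 FPKM in WT, and these 5 genes together summed to 91.5 FPKM in KO and 39.9 FPKM in WT, 2.30-fold higher.

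The pi class, whose main gene Gstp1 encodes an abundant cytosolic transferase, summed to 197 FPKM in KO and 153 FPKM in WT, 1.28-fold higher (1.23 to 1.34). Gstp1 had 179 FPKM in KO and 136 FPKM in WT, 1.32-fold higher (1.26 to 1.38). Gstp2 had 14.3 FPKM in KO and 13.4 in WT, and Gstp3 had 3.27 in KO and 4.05 in WT, with intervals that included 1. Gstp2 shares 49.1% of its 50-base words with Gstp1, so single values of this pair are uncertain. Summed with the pseudogene Gstp-ps they had 210.1 FPKM in KO and 163 FPKM in WT, 1.29-fold higher.

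The alpha class handles products of lipid peroxidation and steroids. Gsta1 had 20.4 FPKM in KO, from 344 reads, and 14.2 FPKM in WT, from 237 reads, 1.43-fold higher (1.21 to 1.70). Its copies are hard to separate, since 90.5% of its 50-base words occur in other genes. Together with Gsta2, Gm3776 and Gm10639, the genes that share them, it summed to 24.1 FPKM in KO and 18.3 FPKM in WT, 1.32-fold higher. Gsta4, which conjugates 4-hydroxynonenal and shares no such word with another gene, had 22.3 FPKM in KO and 19.9 in WT, 1.12-fold (0.983 to 1.28). Gsta3 was at 0.926 FPKM in KO and 1.35 in WT, from 71 and 102 reads, 0.687-fold (0.5001 to 0.939). Gsta2 stayed below 1 FPKM, with 10 reads in KO and 4 in WT, and was not compared.

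Gstk1, the kappa class transferase of mitochondria and peroxisomes, had 16.2 FPKM in KO, from 419 reads, and 10.6 FPKM in WT, from 271 reads, 1.53-fold higher (1.31 to 1.78). It shares no 50-base word with another gene. The theta class summed to 21.8 FPKM in KO and 21.5 in WT. Within it, Gstt3 had 3.85 FPKM in KO and 2.87 in WT, 1.34-fold (1.11 to 1.62), and 13.6% of its exon bases overlap the locus Gm20441. Gstt1 had 12.3 FPKM in KO and 13.1 in WT, and Gstt2 had 5.71 in KO and 5.52 in WT. Gstt4 was listed at 0 in both libraries, where a count of 0 allows up to 3 reads, or 0.172 FPKM in KO and 0.174 FPKM in WT at its length.

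The omega class gene Gsto1, which also reduces dehydroascorbate, had 143 FPKM in KO and 135 FPKM in WT, 1.06-fold (1.02 to 1.10). Its neighbour Gsto2 was at 0.0730 FPKM in KO and listed at 0 in WT. Gstz1, which acts in tyrosine breakdown as maleylacetoacetate isomerase, had 5.20 FPKM in KO and 5.63 in WT, with 9.14% of its exon bases overlapping Pomt2 on the other strand. The microsomal transferases, membrane enzymes that belong to a different protein family, were level, with sums of 299 FPKM in KO and 297 in WT. Mgst1 had 81.3 FPKM in KO and 88.3 in WT, 0.921-fold (0.876 to 0.970). Mgst2 had 39.8 in KO and 35.8 in WT, 1.11-fold (1.05 to 1.18), and Mgst3 had 178 in KO and 173 in WT.

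The mRNA of the regulators themselves was nearly equal in the libraries. Nfe2l2 had 48.0 FPKM in KO, from 3217 reads, and 47.3 FPKM in WT, from 3130 reads, 1.01-fold (0.965 to 1.07). Keap1 had 7.11 FPKM in KO and 7.92 in WT, 0.897-fold (0.801 to 1.004), and 10.9% of its exon bases overlap the antisense locus Gm16754. NRF2 is controlled mainly through the stability of its protein, which RNA does not measure.

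Both subunits of glutamate-cysteine ligase, the enzyme that sets the rate of glutathione synthesis, were higher in KO. The modifier subunit Gclm (ENSMUSG00000028124, chromosome 3, 122245557 to 122270732) had 24.0 FPKM in KO, from 2664 reads, and 13.9 FPKM in WT, from 1528 reads. That is 1.72-fold higher (1.61 to 1.83). Of its exon bases, 4.71% overlap the antisense locus Gm17494 and 3.88% the locus Gm6061 on the same strand. Of its 50-base words, 4.58% also occur in other genes, among them 3.24% in Ppia. The catalytic subunit Gclc had 27.6 FPKM in KO and 21.5 FPKM in WT, 1.29-fold higher (1.20 to 1.38). The level of Gclc over that of Gclm was 1.15 in KO and 1.54 in WT. Gsr, the reductase that returns oxidised glutathione to its reduced form, had 101 FPKM in KO and 104 FPKM in WT, 0.9749-fold (0.937 to 1.01).

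The glutathione peroxidases, selenoproteins that reduce peroxides with glutathione, differed among themselves. Gpx2, the form of the gastrointestinal epithelium (ENSMUSG00000042808, chromosome 12, 76792333 to 76795554, minus strand), had 292 FPKM in KO, from 16604 reads, and 192 FPKM in WT, from 10792 reads. That is 1.52-fold higher (1.48 to 1.56). Gpx1, the cytosolic form of most cells, had 117 FPKM in KO and 130.0 FPKM in WT, 0.899-fold (0.855 to 0.945). Gpx3, a secreted form, had 40.2 FPKM in KO and 36.8 in WT, 1.09-fold (1.01 to 1.18). Gpx4, which protects membranes from lipid peroxides, had 89.2 in KO and 83.7 in WT, 1.07-fold (1.01 to 1.13). The pseudogene Gpx4-ps2, which holds 34.7% of the 50-base words of Gpx4, was listed at 49.1 FPKM in KO and 45.7 FPKM in WT.

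All 4 enzymes of the quinone, thioredoxin and peroxiredoxin group were higher in KO under each scaling tried. Prdx1 (ENSMUSG00000028691, chromosome 4, 116685544 to 116700822), a peroxiredoxin that breaks down hydrogen peroxide, had 370.04 FPKM in KO, from 19884 reads, and 217 FPKM in WT, from 11533 reads. That is 1.70-fold higher (1.66 to 1.74), and among the 4911 genes of at least 10 FPKM in either library 105 had a higher log2 ratio. Srxn1, sulfiredoxin, which repairs over-oxidised peroxiredoxins, had 141 FPKM in KO and 109 FPKM in WT, 1.30-fold higher (1.25 to 1.35). Txnrd1, the cytosolic thioredoxin reductase, had 56.0 FPKM in KO and 45.3 FPKM in WT, 1.23-fold higher (1.19 to 1.28). Nqo1, a quinone reductase often used as a readout of NRF2, had 18.4 FPKM in KO, from 505 reads, and 15.4 FPKM in WT, from 418 reads, 1.19-fold higher (1.05 to 1.36).

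Other genes of the pathway were taken from lists of 85 genes for NRF2 regulators, glutathione turnover, NADPH supply, thioredoxin and peroxide removal, other inducible enzymes and export of conjugates, of which 79 were compared. Their median log2 ratio was 0.04, with 1 gene at least 2-fold higher, 1 at least 2-fold lower and 77 between, shares no larger than the 1.61% and 2.51% of all compared genes. The higher one was Me1, malic enzyme, a source of cytosolic NADPH, with 42.9 FPKM in KO, from 2912 reads, and 4.24 FPKM in WT, from 284 reads, 10.1-fold higher (8.95 to 11.5). The lower one was Chac1, which breaks down glutathione, with 1.14 FPKM in KO, from 33 reads, and 5.92 FPKM in WT, from 169 reads, 0.193-fold (0.128 to 0.281). Between 1.5-fold and 2-fold lay Hagh, a glyoxalase enzyme (48.6 FPKM in KO, 28.0 in WT), and G6pdx, the entry enzyme of the pentose phosphate pathway (31.7 in KO, 19.1 in WT), on the higher side. Gpx7 (2.64 in KO, 4.67 in WT) lay there on the lower side. These 3 were chosen after their values were seen. With Me1 and Chac1, 3 of the 79 were at least 1.5-fold higher and 2 at least 1.5-fold lower, beside 3.56% and 5.69% of all compared genes.

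Most of the abundant genes of the lists were close to level. The autophagy receptor Sqstm1 had 61.7 FPKM in KO and 57.3 in WT, and the NRF2 competitor Bach1 had 40.3 in KO and 44.4 in WT. NRF1, from Nfe2l1, had 24.96 in KO and 26.1 in WT. The surface enzymes that take glutathione apart, Dpep1 and Ggt1, had 219 and 140.5 FPKM in KO, against 192 and 137 in WT, and Glo1 had 47.3 in KO and 50.8 in WT. Of the NADPH suppliers, Taldo1 had 171 in KO and 164 in WT, Idh1 had 104 in KO and 98.0 in WT, and Tkt had 63.6 in KO and 57.9 in WT.

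Thioredoxin Txn1 had 484 FPKM in KO and 475 in WT, superoxide dismutase Sod1 had 209 in KO and 204 in WT, and Prdx5 had 111 in KO and 101 in WT. The ferritin heavy chain Fth1 had 1260.3 FPKM in KO and 1091 in WT, Akr1a1 had 189 in KO and 195 in WT, and carbonyl reductase Cbr1 had 80.8 in KO and 58.4 in WT, 1.38-fold higher (1.32 to 1.46). Hmox1, heme oxygenase, a common marker of NRF2 activity named after its values were seen, was low in both, with 1.33 FPKM in KO and 1.803 in WT, from 41 and 55 reads. Of the exporters, Abcc2, which moves glutathione conjugates across the apical membrane, had 59.0 FPKM in KO and 42.6 in WT, 1.39-fold higher (1.34 to 1.43), Abcc3 of the basolateral side had 10.1 in KO and 13.4 in WT, and Abcc10 had 4.38 in KO and 4.82 in WT.

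**Figure D5:**
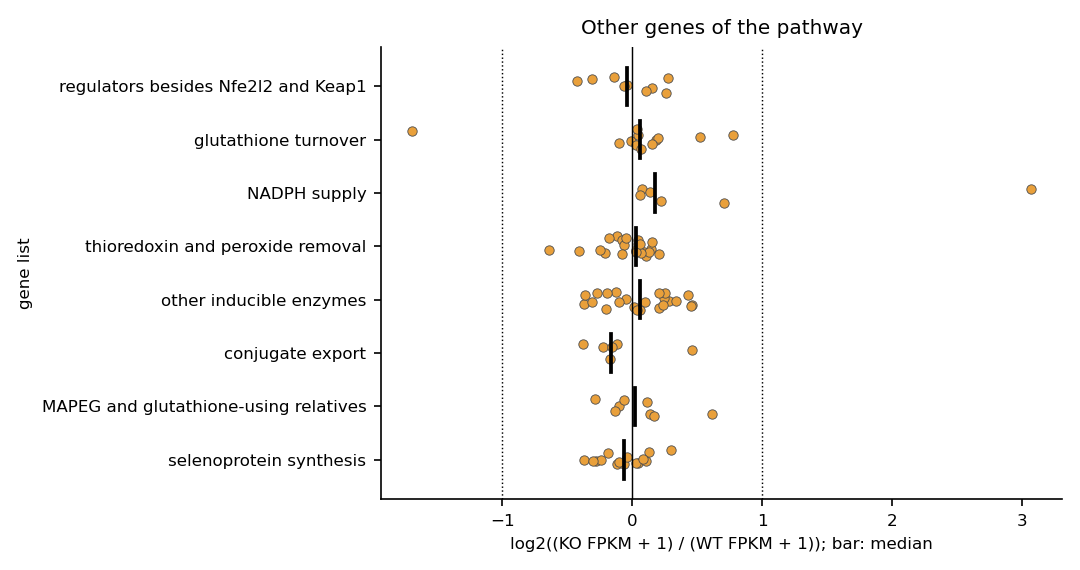
Log2 ratio of KO over WT FPKM (x axis) for the compared genes of 8 wider lists (y axis), 1 point per gene with random vertical spread and a bar at each median; dotted lines mark 2-fold. The points gather around 0, apart from Me1 at 3.07 and Chac1 at -1.69.

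The lists of glutathione-using relatives and of selenoprotein synthesis had no gene past 2-fold among 8 and 15 compared genes, with medians of 0.02 and -0.06. Clic1 had 82.6 FPKM in KO and 101 in WT, Clic5 had 70.6 in KO and 75.9 in WT, and Clic4 had 14.8 in KO and 13.7 in WT. Alox5ap, a relative of the microsomal transferases in leukotriene synthesis, was past 1.5-fold with 1.40 FPKM in KO and 0.566 in WT, from 35 and 14 reads, and is named for that value. Selenop, the selenium carrier, had 1305 FPKM in KO and 1277 in WT, Selenot had 68.0 in KO and 63.0 in WT, and Selenow had 61.0 in KO and 69.4 in WT.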

How the data were processed

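RNA from 2 small intestine samples, 1 per genotype, was sequenced after TRIzol extraction and SMART-Seq II amplification, per the labels' protocols. The deposited values are FPKM, which the authors normalised by gene length and library size. The submitters' processing notes list Bowtie2 2.2.3, HTSeq 0.6.0 and the build mm10 and assign no role to any of them. Not given in the sources used here are the annotation, strand setting, treatment of reads that fit several genes, filters and pooling. Columns were matched to libraries by title.

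Gene identifiers were joined to GENCODE M21 (GRCm38, the assembly of mm10), which held 27222 of 27275, and coordinates count from 1. FPKM times summed exon length stepped in whole reads, within 0.01, for 90.7% of values above 0 in KO and 90.6% in WT, which gave the depth. For 5 members (Gstp1, Gstp2, Gstp3, Gsto1 and Gsto2) the nearest length that made both values whole within a tolerance of 0.0005, widened in proportion for high read numbers, was used. Reads served only for exact Clopper-Pearson 95% intervals of folds. Intervals of summed FPKM combine the counting error of the members on the log scale. A floor of 3 reads is 0.170 FPKM in KO and 0.172 FPKM in WT for 1 kb. The steps were tested on simulated data with known depths and folds. Those data held independent reads, so they cannot test PCR copies, reads that fit several genes or differences between mice.

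Genes with at least 1 FPKM in either library were compared with a pseudocount of 1. With 1 library per genotype no p-value was computed. The members and lists were chosen with earlier results of these data known. All members are named, and of each wider list the genes past 2-fold or, where fewer than 3 were, also the 3 with the highest mean FPKM. Alternatives were pseudocounts of 0.1 and 5, other filters, 3 rescalings and a 1.5-fold limit. Identity between proteins, planned at first, was not computed; shared 50-base words of GENCODE transcripts, on both strands, were counted instead. Promoters are from RefSeq, GRCm38.p6. Computation used Python 3.11.15, pandas 2.3.3, numpy 2.4.6, scipy 1.17.1 and matplotlib 3.10.9.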

Additional observations from a re-analysis of the deposited data

How the results depend on the processing

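Gstm3 was the only member past 2-fold on the higher side, and no member was past it on the lower side, under pseudocounts of 0.1 and 5, without a filter on low values, with a filter at 5 FPKM and under the 3 rescalings. With a 1.5-fold limit 5 members were higher and 0 lower. That number was 7 with the low pseudocount (0.1), 4 with the high one (5) or with equal library totals, and 6 with upper quartile scaling or centring. The median of the members stayed between 0.10 and 0.20. Of the wider lists, 2 genes were past 2-fold higher with the low pseudocount, and 0 were past it lower with the high one. At 1.5-fold there were 4 higher and 2 lower among their 102 compared genes, beside 3.56% and 5.69% of all compared genes. These differences follow from the pseudocount or the limit. Gstm2 and Nfe2l2 changed sign with equal totals, and Gsr with upper quartile scaling or centring. Upper quartile scaling moved the folds of summed FPKM beyond counting error for microsomal transferases (1.04), glutathione synthesis and recycling (1.13), peroxidases (1.26) and the quinone, thioredoxin and peroxiredoxin group (1.56, and 1.48 with equal totals). Asking for TGACTCAGC left 1 member with a promoter match. Among all compared genes, those past 2-fold numbered 355 higher and 575 lower with the low pseudocount, 61 and 122 with the high one, and 97 and 193 under the 5 FPKM filter. No paired analysis was possible because there was 1 library per genotype, and for the same reason no replicate could be left out. Depth limits Gsta2, Gsto2, Gstt4 and Gstm2-ps1, each below 20 reads per library.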
